A study of Homo sapiens with 22 samples.

Results

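The 60 genes described here serve mitosis. They drive entry into mitosis, build the spindle, hold chromosomes on it, release the chromatids and finish cell division. They were taken by symbol from a deposited table of raw counts with 35237 genes. All 60 were in the table and all 60 passed the filter on low counts in each model. The RNA made 22 libraries from 2 established cell lines of human neuroblastoma, SK-N-AS and GIMEN, which the labels call mesenchymal. PP121 inhibits both tyrosine kinases and phosphoinositide kinases. Bufalin, a toad-derived cardiac glycoside, blocks the sodium pump. Untreated SK-N-AS cells grew in DMEM with 10% FBS (n = 4). In stage 1 they received 5 µM PP121 in DMEM with 1% FBS for 4 days (S1D4, n = 4). In stage 2, S1D4 cells went on with 5 µM PP121 and 100 nM bufalin in Neurobasal medium with B27, for which no FBS is named, and were sampled after 4 days as S2D4 (4 libraries) and after 30 days as S2D30 (4 libraries). The GIMEN line was kept without drug in RPMI with 10% FBS (n = 3) or with 2.5 µM PP121 and 10 nM bufalin in RPMI with 1% FBS for 30 days (D30, n = 3). Both untreated groups are labelled with medium alone and no vehicle. Against untreated cells, drug, serum and time therefore change together, in stage 2 with the medium too, and their parts cannot be told apart. From S1D4 to S2D4 the same holds for bufalin, serum, medium and time. S2D4 and S2D30 are labelled with the same drugs and medium and differ in days. Between the lines, line and medium change together, and after 30 days the doses too. The labels number the replicates without saying whether they were separate cultures, so the p-values measure the spread between these libraries, which may be technical.

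A cell enters mitosis when CDK1 joins a B-type cyclin and is switched on. Aurora and Polo kinases then help to form the spindle, and kinetochores on the centromeres catch its microtubules. The spindle checkpoint holds back the anaphase-promoting complex until each chromosome is attached, after which securin and cyclin B are destroyed and separase parts the sister chromatids. Transcripts of most of these proteins are known to rise late in the cell cycle under B-MYB, FOXM1 and the MuvB complex, and to be repressed in resting cells when MuvB joins the p130-E2F4 form known as DREAM. MuvB binds a promoter element called the cell cycle genes homology region (CHR), and the factor NF-Y binds nearby CCAAT boxes. Dividing cultures hold only a minority of cells in mitosis at any moment. In RNA from whole cultures, fewer cycling cells and less RNA per cycling cell cannot be told apart.

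The promoters of those genes present in the RefSeq promoter table (GRCh38.p14, 250 bases before to 50 after each start) were searched for the letters of these elements. The table held 51 of the 60. The CHR letters TTTGAA or TTCGAA, on either strand, stood in 38 of 51 (74.5%, 95% Wilson interval 61.1 to 84.5%), against 16.6% of all 27305 promoters of the same length. CCAAT on either strand stood in 39 of 51 (76.5%, interval 63.2 to 86.0%), against 35.7% of all promoters. Both stood in 31 (60.8%), against 6.58%. The 6 promoters printed here are those of the genes named throughout that hold both within 110 bases before the start. They are written 5′ to 3′ on the gene's own strand and end just before the start. Capitals mark TTTGAA or its reverse TTCAAA, and CCAAT or its reverse ATTGG. In MKI67 a CHR match and a CCAAT match overlap.
PLK1 (chr16:23678779-23678888, plus strand): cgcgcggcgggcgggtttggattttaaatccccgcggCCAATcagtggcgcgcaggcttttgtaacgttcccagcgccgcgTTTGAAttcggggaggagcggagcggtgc
CDC20 (chr1:43358871-43358980, plus strand): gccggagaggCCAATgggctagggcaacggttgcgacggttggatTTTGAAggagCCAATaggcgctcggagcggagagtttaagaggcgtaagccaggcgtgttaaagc
KIF11 (chr10:92593020-92593129, plus strand): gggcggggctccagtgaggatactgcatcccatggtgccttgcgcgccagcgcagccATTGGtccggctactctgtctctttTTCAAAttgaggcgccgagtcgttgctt
PRC1 (chr15:90994536-90994645, minus strand): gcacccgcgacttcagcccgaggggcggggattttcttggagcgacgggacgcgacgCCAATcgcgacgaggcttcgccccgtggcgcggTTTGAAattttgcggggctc
INCENP (chr11:62123901-62124010, plus strand): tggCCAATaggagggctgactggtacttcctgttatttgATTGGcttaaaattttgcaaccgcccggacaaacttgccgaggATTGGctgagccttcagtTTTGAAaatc
MKI67 (chr10:128126424-128126533, minus strand): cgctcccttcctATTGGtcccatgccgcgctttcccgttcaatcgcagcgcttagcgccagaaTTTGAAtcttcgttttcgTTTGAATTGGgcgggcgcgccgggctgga
The set spans the whole range of responses: after 30 days MKI67 fell furthest and INCENP least of the 60 in SK-N-AS. The median log2 fold change at S2D30 was -5.94 for the 38 genes with a CHR match and -5.39 for the 13 without one, and the ranges overlapped, from -10.38 to -1.89 and from -9.84 to -2.87. In GIMEN D30 the medians were -5.85 and -5.60. The order was the opposite in S1D4, with -1.58 for genes with a match and -1.77 for those without, and in S2D4, with -2.74 and -2.96. No difference was tested. A match is a string of letters and not a binding site shown in these cells, and the 9 genes not found in the table (AURKA, BIRC5, CENPM, FOXM1, KNTC1, RACGAP1, TPX2, TTK and UBE2C) were not searched.

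Total counts ran from 16456500 to 37506800 per library. The 10 mesenchymal markers PRRX1, FN1, VIM, YAP1, FOSL1, FOSL2, SNAI2, NOTCH2, CD44 and TWIST1 were all above a mean of 1 CPM (counts per library scaled to a common total) in untreated SK-N-AS, and 9 were in untreated GIMEN. All 8 adrenergic markers were also above 3 counts in at least 1 untreated SK-N-AS library, with a sum of 1571 to 1763 CPM, whereas PHOX2A and TH were at 0 in untreated GIMEN. The adrenergic sum was 178 to 226 CPM in S2D30. The mesenchymal sum was 961 to 1493 CPM in untreated SK-N-AS and 3507 to 4198 in S2D30. In the edgeR test described below, 8 of the 10 markers were higher in S2D30 (33.8% of all genes) and 2 lower (36.5% of all genes), with FN1 at a log2 fold change of -5.02. In GIMEN the mesenchymal sum was 38004 to 39602 CPM untreated and 20708 to 23805 at D30, and the adrenergic sum 409.7 to 435 and 234 to 277. Of 9 mesenchymal markers tested in GIMEN, 7 were lower at D30 (36% of all genes) and 1 higher (35.5% of all genes). These marker levels moved with the groups, and their part in the results below was not tested. Some libraries stood apart within their group in these 60 genes. In S1D4, replicates 1 and 2 were both above replicates 3 and 4 in 59 of the 60, with a median ratio of 1.81. In S2D4, replicate 4 was above the other 3 in 52, with a median ratio of 1.47. Replicate 4 of untreated SK-N-AS differed with transcript length: its ratio to the mean of the other 3 ran from 0.617 for PTTG1 to 1.90 for ASPM, and its log2 correlated with the log2 length of the longest GENCODE 29 transcript across the 60 genes (Pearson 0.85, Spearman 0.83, a description, since all values share 4 libraries). In S1D4 the same Spearman correlation was -0.49 and -0.48 for replicates 1 and 2 and 0.53 and 0.52 for replicates 3 and 4. The log2 fold change against untreated cells also correlated with length, at 0.47 in S1D4, 0.25 in S2D4, 0.08 in S2D30 and 0.20 in GIMEN D30 (Spearman). The part of length in the order of the genes was not tested.

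All 60 genes were lower after each treatment, and their summed level went down at every step. The summed CPM of the 60 genes was 4398 to 4874 in untreated SK-N-AS, then 1997, 2027, 1187 and 1119 in S1D4 replicates 1 to 4, and 742, 723, 742 and 1031 in S2D4. In S2D30 the sum was 190 to 199.98. GIMEN went from 6824 to 6888 in untreated cells to 248 to 270 at D30. No 2 groups of a line overlapped in this sum. Relative to the untreated mean, the median gene stood at 34.0% in S1D4 (range 21.5 to 59.2%), 15.1% in S2D4 (5.18 to 77.5%), 1.86% in S2D30 (0.0729 to 27.6%) and 1.97% in GIMEN D30 (0.424 to 28.2%). The 34.0% pools unequal libraries: the median gene stood at 43.2% in S1D4 replicates 1 and 2 and at 24.0% in replicates 3 and 4. At 30 days 20 genes in SK-N-AS and 11 in GIMEN were under 1% of the untreated mean.

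**Figure D1:**
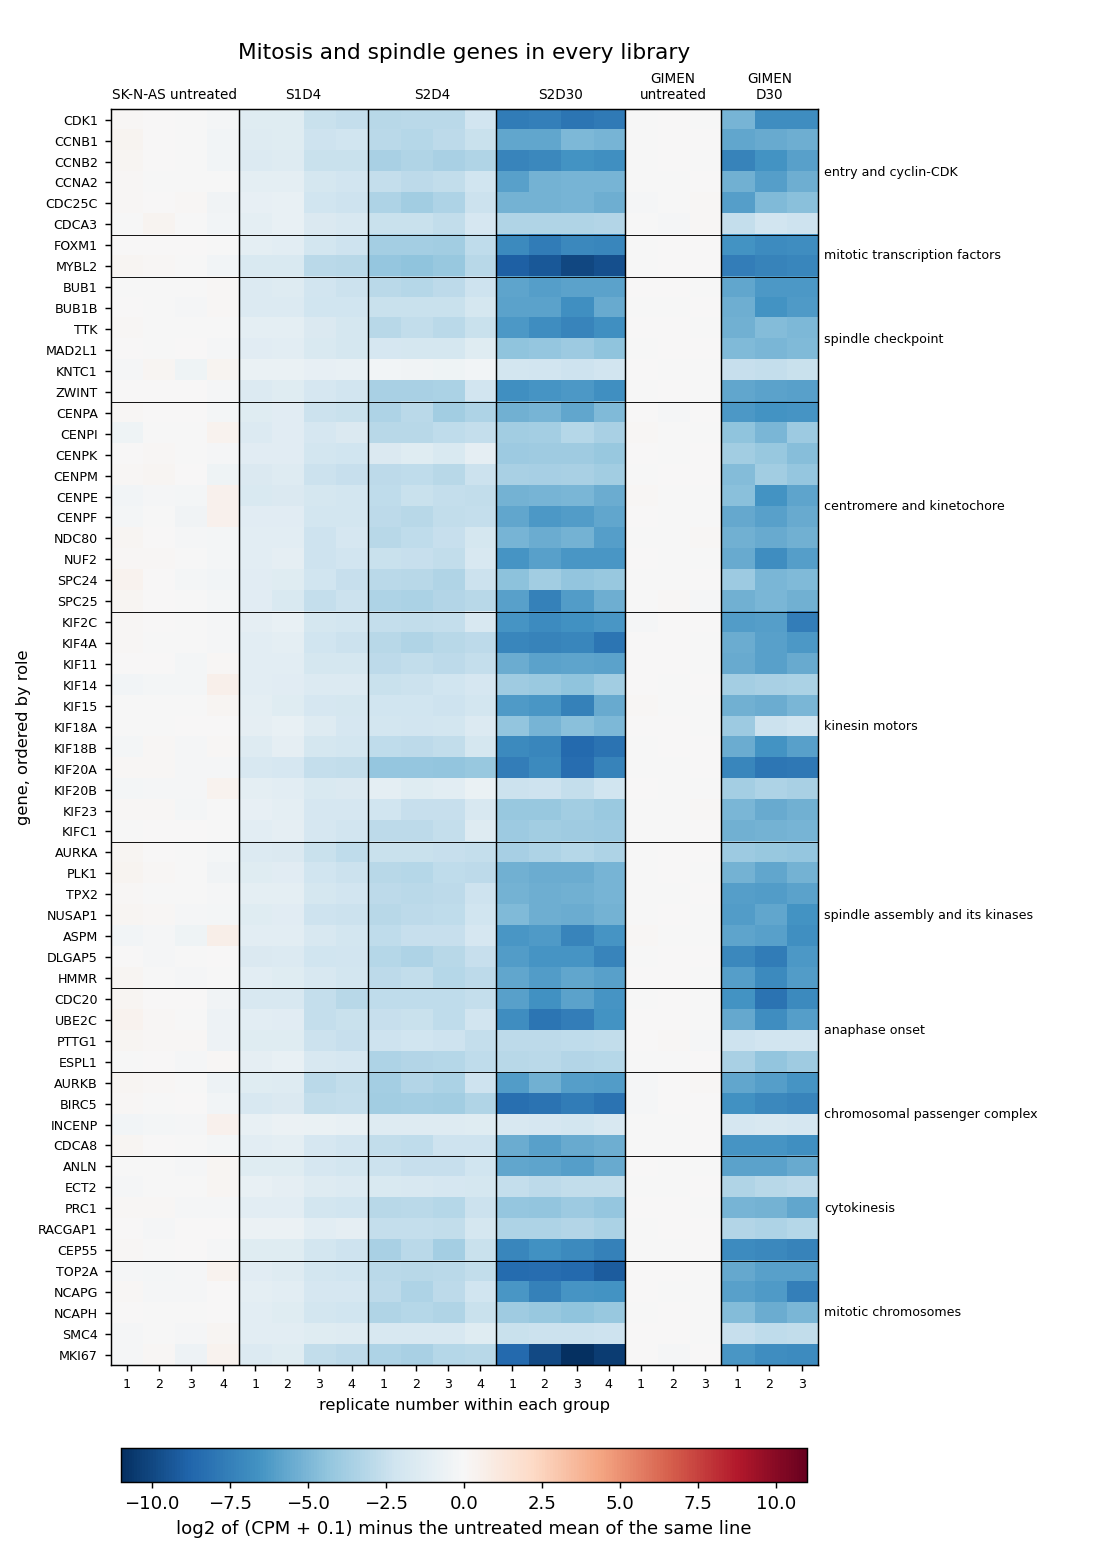
Level of each of the 60 genes in every library, as log2 of (CPM + 0.1) minus the untreated mean of the same line. Rows are genes ordered by role and columns are libraries by group. S1D4 replicates 1 and 2 are paler than 3 and 4, S2D4 replicate 4 is paler than the other 3, and both 30-day groups are darkest, with KNTC1, INCENP, SMC4 and KIF20B among the palest rows.

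In edgeR's quasi-likelihood test, with Benjamini-Hochberg adjustment over all genes and a threshold of 0.05, 60 of 60 genes were lower in S1D4 than in untreated SK-N-AS. Of all 15810 genes tested, 22.4% were lower and 17.6% higher in that comparison. The median log2 fold change was -1.58 for the 60 genes and -0.01 for all genes. In S2D4 against untreated cells 60 of 60 were lower (32.2% of all genes), with medians of -2.76 and -0.02, and in S2D30 60 of 60 were lower (36.5% of all genes), with medians of -5.76 and -0.03. In GIMEN D30 against untreated GIMEN 60 of 60 were lower (36% of the 13517 genes tested), with medians of -5.68 and 0.02. The median for S1D4 was -1.25 with replicates 1 and 2 of both groups alone, and -2.06 with replicates 3 and 4 alone. With replicates 1 and 2 alone 58 genes were lower (share of all genes not computed). Without S2D4 replicate 4 the S2D4 median was -2.92. The 3 SK-N-AS comparisons share their untreated libraries. Libraries of both groups did not overlap for 60 genes in S1D4 (20.1% of all genes lower without overlap), 59 in S2D4 (25.8% of all genes lower and 25.3% higher), 60 in S2D30 (33.1%) and 60 in GIMEN (36.8%). KNTC1 in S2D4 was the exception.

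**Figure D2:**
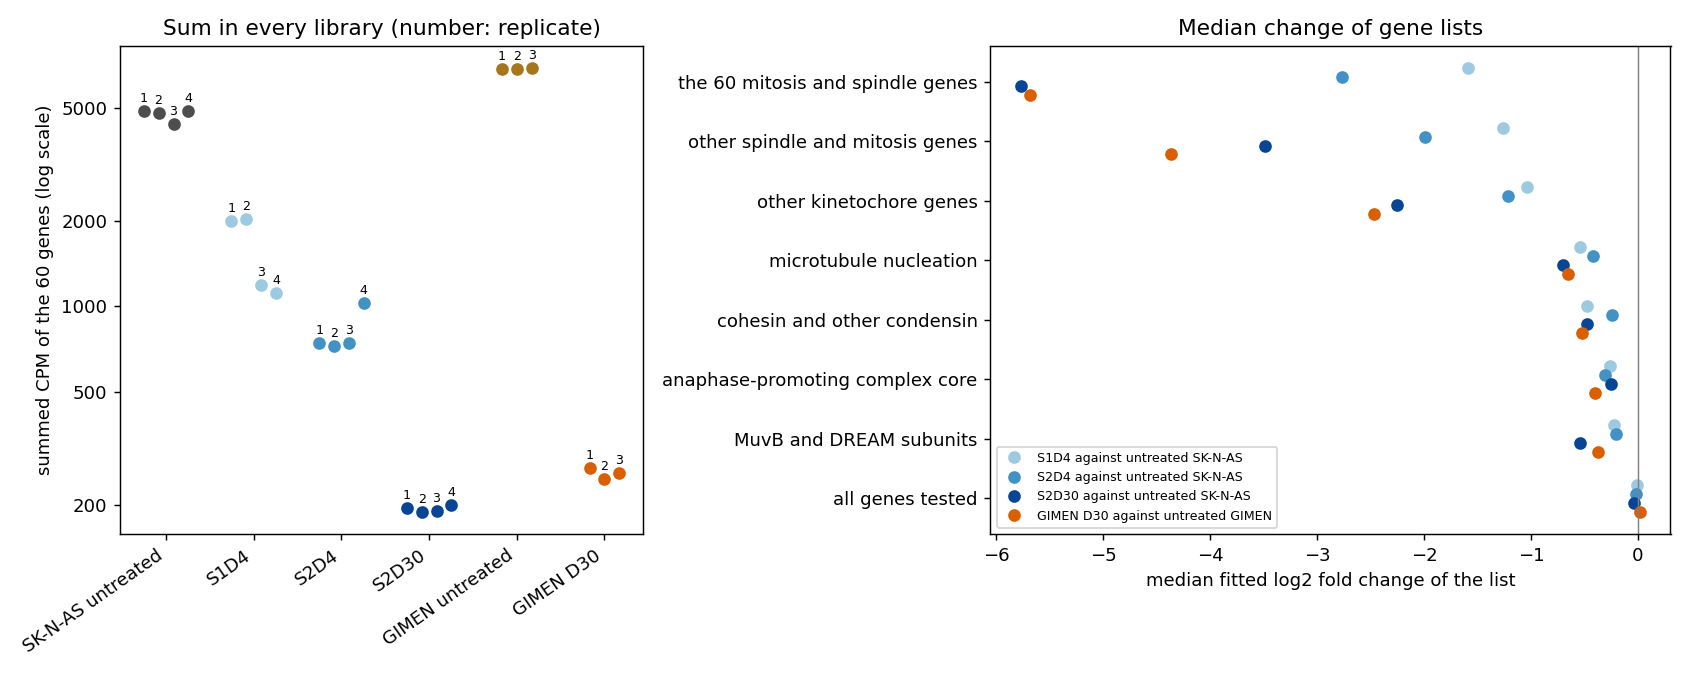
Left, summed CPM of the 60 genes in each library on a log scale, numbered by replicate. Right, the median fitted log2 fold change of the 60 genes, of 6 related lists and of all genes tested, in 4 comparisons with untreated cells. The 60 genes have the lowest median of these lists in each comparison, and the anaphase-promoting complex and the MuvB and DREAM subunits lie between -0.54 and -0.21.

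CDK1, the kinase that starts mitosis, was at 95.9, 91.5, 85.2 and 73.4 CPM without treatment, 35.2, 33.8, 15.9 and 14.3 in S1D4, 10.5, 10.9, 11.1 and 20.1 in S2D4 and 0.307, 0.358, 0.227 and 0.304 in S2D30. Each later group was below the untreated one without overlap, and the S2D4 library near 20 CPM was replicate 4, above S1D4 replicates 3 and 4. The log2 fold change at S2D30 was -8.20 ± 0.41 (SE, edgeR adjusted p = 3.17e-11), a 293-fold fall. In GIMEN CDK1 went from 82.1, 84.5 and 81.7 CPM to 2.29, 0.635 and 0.642. The first D30 library was the highest, and without it the log2 fold change moved from -6.11 to -7.02. CCNB1, the cyclin B1 that activates CDK1, fell less far, from 154, 131, 124 and 103 CPM in untreated SK-N-AS to 2.37, 2.35, 4.17 and 3.56 in S2D30 (-5.39 ± 0.28, edgeR adjusted p = 5.21e-11). It went from 151, 156 and 159.9 to 2.82, 3.30 and 3.66 CPM in GIMEN, a log2 fold change of -5.61 ± 0.09. Among the other genes of mitotic entry, CCNB2 (cyclin B2) stood at 0.643% of the untreated mean in S2D30, CCNA2 (cyclin A2) at 2.41% and CDC25C, a phosphatase that activates CDK1, at 1.82%. CDCA3, part of a ubiquitin ligase that targets the CDK1 inhibitor WEE1, kept 9.94% in SK-N-AS and 20.0% in GIMEN.

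MYBL2 and FOXM1 encode B-MYB and FOXM1, the transcription factors that switch on many of the other genes in late S phase and G2. MYBL2 was at 329.6, 311, 287 and 237 CPM in the untreated SK-N-AS libraries, 93.1, 93.2, 36.2 and 35.9 in S1D4, 15.04, 13.8, 16.2 and 35.03 in S2D4 and 0.483, 0.358, 0.181 and 0.261 in S2D30. It was among the 3 most lowered of the 60 genes in each of the 4 comparisons with untreated cells, with log2 fold changes of -2.20 ± 0.33, -3.89 ± 0.36 and -9.84 ± 0.54 along SK-N-AS and -7.71 ± 0.13 in GIMEN (SE, edgeR adjusted p = 7.38e-05, 9.46e-08, 7.81e-11 and 2.74e-12). FOXM1 went from 146, 146, 151 and 137 CPM to 69.1, 64.7, 35.1 and 29.9 in S1D4, 10.6, 10.5, 10.2 and 21.1 in S2D4 and 1.01, 0.614, 0.951 and 0.912 in S2D30. In GIMEN FOXM1 fell from 214, 218 and 219.9 CPM to 2.17, 1.71 and 1.80. It kept 0.601% of the untreated level in S2D30 and 0.872% in GIMEN D30. In GENCODE 29, 15.9% of its exon bases lie opposite another gene, and without strand the reads of such a pair cannot be told apart.

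The spindle checkpoint genes BUB1, BUB1B (BubR1), TTK (MPS1) and MAD2L1 (MAD2) make the signal that delays anaphase, and ZWINT and KNTC1 tie it to the outer kinetochore. MAD2L1 was at 152, 139, 149.8 and 135 CPM in the untreated SK-N-AS libraries, 61.7, 64.0, 44.7 and 38.8 in S1D4, 38.8, 36.7, 36.7 and 56.3 in S2D4 and 6.80, 7.27, 9.02 and 6.65 in S2D30. S2D4 overlapped S1D4, and S2D30 lay below both without overlap. KNTC1, which encodes the ROD subunit that recruits dynein to kinetochores, was the least regular gene of the 60. Its levels were 84.9, 106, 67.2 and 118 CPM in untreated cells, 56.9, 57.8, 50.8 and 52.0 in S1D4, 74.6, 70.2, 68.4 and 77.9 in S2D4 and 23.7, 21.5, 18.9 and 21.7 in S2D30. It fell in S1D4, stood higher in S2D4 than in S1D4 in every library, and fell again by S2D30. The S2D4 difference from untreated cells was small (-0.40 ± 0.13, edgeR adjusted p = 0.0122), and it missed the threshold without untreated replicate 4 (-0.27, adjusted p = 0.0579) and in a model of the 2 compared groups alone (adjusted p = 0.0582). In GIMEN D30 KNTC1 kept 17.4% of its untreated level, against 22.9% in S2D30. TTK kept 0.588% and 2.86%, BUB1 1.499% and 1.36%, BUB1B 1.497% and 1.43%, and ZWINT 0.902% and 1.61% in S2D30 and GIMEN D30.

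The 10 centromere and kinetochore genes together showed medians (log2 fold change) of -1.72, -2.84 and -5.41 in S1D4, S2D4 and S2D30, and -5.49 in GIMEN D30. CENPA encodes the histone H3 variant that marks the centromere, and was at 20.9, 19.3, 20.0 and 16.5 CPM in the untreated SK-N-AS libraries, 7.63, 8.15, 3.75 and 3.37 in S1D4, 1.72, 2.33, 1.22 and 1.72 in S2D4 and 0.395, 0.461, 0.272 and 0.565 in S2D30. In GIMEN it went from 27.0, 24.9 and 28.4 to 0.235, 0.190 and 0.193 CPM, on 4, 3 and 3 reads in the D30 libraries. NDC80, which forms the microtubule-binding complex of the outer kinetochore with NUF2, SPC24 and SPC25, went from 28.4, 25.05, 21.3 and 20.9 CPM to 0.614, 0.461, 0.544 and 0.261 in S2D30 (-5.69 ± 0.34, edgeR adjusted p = 2.36e-10). The other 3 subunits had log2 fold changes of -6.60 (NUF2), -4.41 (SPC24) and -6.71 (SPC25). SPC25 had 4, 0, 3 and 7 reads in the 4 S2D30 libraries. The kinetochore motor CENPE and its partner CENPF had log2 fold changes of -5.29 and -6.00. CENPI, CENPK and CENPM belong to the constitutive centromere network, which sits on centromeres throughout the cell cycle. Their log2 fold changes at S2D30 were -3.73, -4.18 and -3.85, the 3 smallest falls of this group.

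In S2D4 the 11 kinesins ranged from KIF20A, the motor that carries passenger proteins to the midzone, to KIF20B, a related motor of cytokinesis. In S2D30 KIF18B (-7.94) stood as low as KIF20A (-7.92). KIF18A was the least lowered kinesin in S1D4 and GIMEN D30 (-1.23 and -2.72). It kept 15.6% of its untreated level in GIMEN, against 8.34% for KIF20B. That 15.6% pools unequal libraries: KIF18A was at 28.4, 28.8 and 27.2 CPM in untreated GIMEN and 1.64, 5.33 and 6.17 at D30. For KIF20B the D30 libraries were at 3.88, 4.89 and 4.50 CPM. KIF20A was at 88.2, 86.1, 71.2 and 73.5 CPM in the untreated SK-N-AS libraries, 23.3, 22.4, 12.6 and 11.8 in S1D4, 4.05, 4.18, 3.91 and 4.37 in S2D4 and 0.307, 0.512, 0.136 and 0.391 in S2D30. It had the lowest fold change of the 60 genes in S2D4 (-4.30 ± 0.23, edgeR adjusted p = 1.64e-10) and in GIMEN D30 (-7.87 ± 0.13, adjusted p = 2.74e-12), where its libraries went from 114, 114 and 119 CPM to 0.705, 0.381 and 0.385. KIF20B was at 24.4, 25.6, 25.2 and 36.1 CPM, then 12.9, 12.3, 8.90 and 9.22 in S1D4, 12.8, 10.9, 12.5 and 16.6 in S2D4 and 5.26, 5.68, 4.58 and 5.91 in S2D30. S1D4 and S2D4 overlapped for KIF20B, and 19.2% of the untreated level was left at 30 days. KIF11, the Eg5 motor that pushes the spindle poles apart, went from 71.4, 70.9, 62.7 and 77.5 CPM to 1.54, 1.13, 1.13 and 1.13 in S2D30 and from 107, 105 and 99.2 to 2.17, 1.52 and 2.12 in GIMEN D30. Its log2 fold changes were -5.87 ± 0.22 and -5.76 ± 0.11. The chromokinesin KIF4A and the plus-end depolymerase KIF18B had log2 fold changes of -7.88 and -7.94 in S2D30. KIF15, which can share the work of KIF11, had 3, 2, 0 and 6 reads there. KIFC1, the minus-end motor HSET that clusters spindle poles, kept 6.37% in S2D30 but 2.61% in GIMEN D30. In GENCODE 29, 12.7% of its exon bases lie opposite another gene and 10.5% of its 75-base words are shared with other genes.

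**Figure D3:**
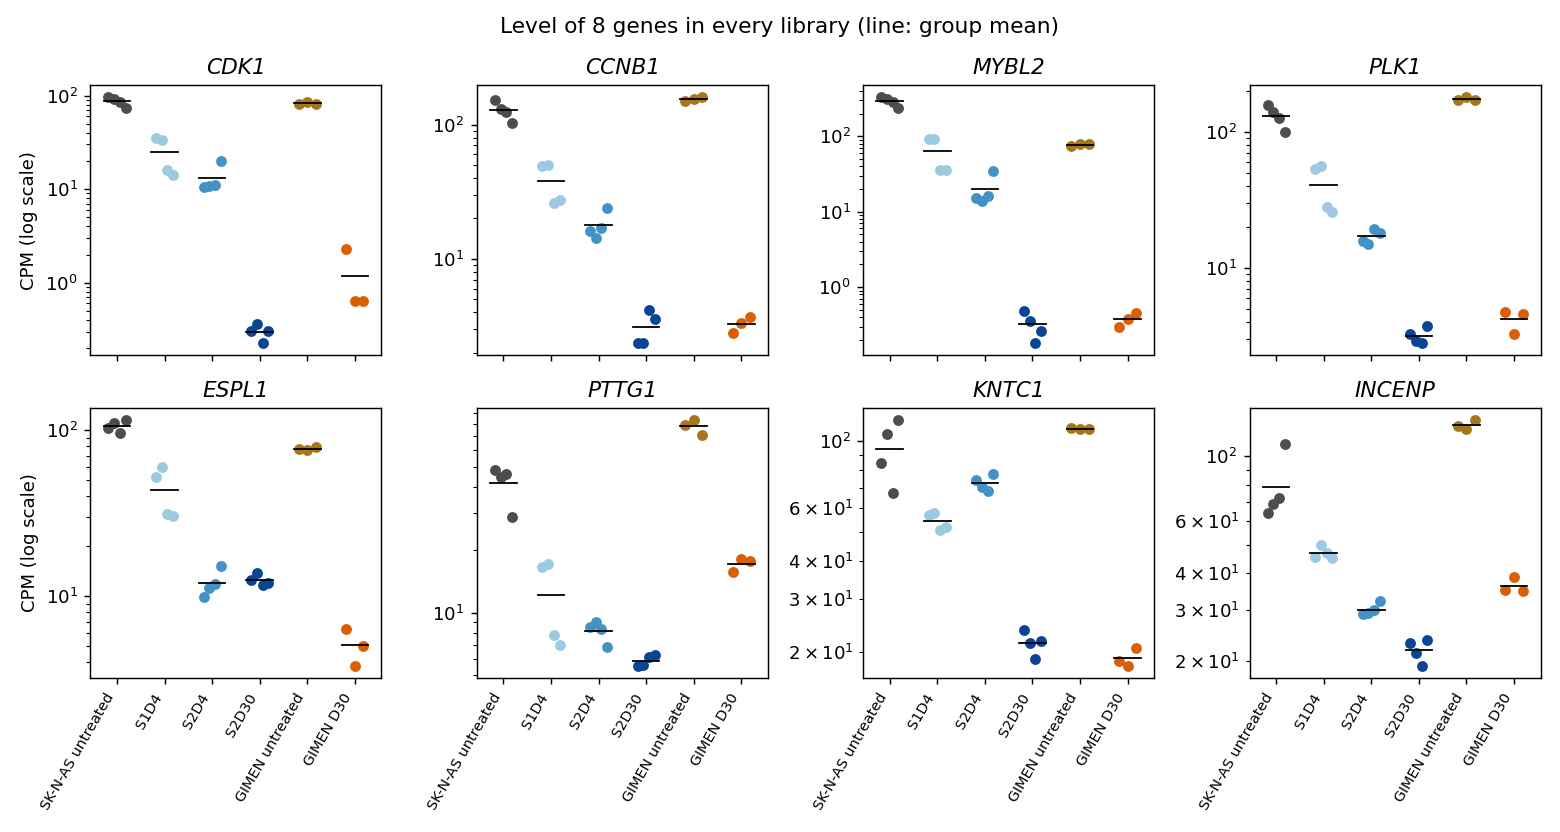
CPM of 8 genes in every library on log axes, each panel with its own range, with a line at the group mean. CDK1, CCNB1, MYBL2 and PLK1 step down in each SK-N-AS group, ESPL1 is as low in S2D4 as in S2D30, PTTG1 changes little after S1D4 replicates 3 and 4, KNTC1 rises from S1D4 to S2D4, and INCENP keeps the largest share of its untreated level in S1D4 and both 30-day groups but not in S2D4, where KNTC1 does.

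PLK1 (Polo-like kinase 1) and AURKA (Aurora A) mature the centrosomes, and TPX2 activates AURKA on spindle microtubules. PLK1 was at 158, 141, 126 and 101 CPM in the untreated SK-N-AS libraries, 53.4, 56.4, 27.9 and 25.9 in S1D4, 15.7, 15.1, 19.4 and 18.2 in S2D4 and 3.25, 2.92, 2.81 and 3.74 in S2D30. In GIMEN it went from 172.9, 180.1 and 173.1 to 4.76, 3.30 and 4.56 CPM, and its log2 fold change was nearly equal in both lines, -5.40 ± 0.27 and -5.40 ± 0.10. In GENCODE 29, 12.5% of its exon bases lie opposite another gene. TPX2 fell from 177, 158, 159 and 145 CPM to 4.30, 3.84, 4.12 and 4.52 in S2D30 (-5.29 ± 0.25, edgeR adjusted p = 1.70e-11). AURKA kept 9.43% of the untreated level in S2D30 and 5.60% in GIMEN D30, more than any of the other 6 genes of this group in either line. DLGAP5 (HURP), which bundles spindle fibres, ASPM, a pole protein, and HMMR, a spindle-associated hyaluronan receptor, had log2 fold changes of -6.94, -6.77 and -6.11 in S2D30. NUSAP1, a microtubule bundler, was at -5.28, and shares 50.3% of its 75-base words with other genes of GENCODE 29, so its reads could have been divided.

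The 4 genes of anaphase onset had log2 fold changes from -7.44 to -2.87 in S2D30. CDC20 activates the anaphase-promoting complex and went from 117, 104, 101 and 76.9 CPM to 28.8, 29.6, 15.7 and 12.02 in S1D4, 14.7, 14.8, 14.4 and 16.4 in S2D4 and 1.45, 0.870, 1.63 and 0.999 in S2D30. It was the most lowered of the 60 in S1D4 (-2.24 ± 0.24, edgeR adjusted p = 2.66e-06). UBE2C, the ubiquitin-conjugating enzyme of the complex, went from 104, 88.6, 77.0 and 55.8 CPM to 0.614, 0.205, 0.317 and 0.739 in S2D30 (-7.44 ± 0.44, adjusted p = 2.30e-10). The other 2 genes of this group kept more. PTTG1, the securin that restrains separase, was at 48.3, 44.6, 46.1 and 28.6 CPM in the untreated SK-N-AS libraries, 16.6, 17.1, 7.85 and 6.96 in S1D4, 8.57, 9.01, 8.38 and 6.84 in S2D4 and 5.57, 5.63, 6.12 and 6.26 in S2D30. S1D4 replicates 3 and 4 already lay within the range of S2D4, and 14.1% of the untreated level was left at S2D30 and 21.97% in GIMEN. ESPL1, the separase itself, was at 103, 111, 96.2 and 115 CPM, then 52.6, 60.1, 31.4 and 30.3 in S1D4, 9.92, 11.2, 11.8 and 15.2 in S2D4 and 12.5, 13.7, 11.6 and 11.9 in S2D30. The last 2 groups overlapped. In GIMEN it went from 76.8, 76.0 and 79.0 to 6.34, 3.81 and 5.01 CPM.

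The chromosomal passenger complex, which corrects faulty attachments and later steers cytokinesis, held both a strongly and the least lowered gene. BIRC5 (survivin) went from 175, 155, 165 and 129.8 CPM to 46.5, 53.1, 24.2 and 25.1 in S1D4, 11.1, 11.7, 10.8 and 15.5 in S2D4 and 0.395, 0.461, 0.680 and 0.478 in S2D30, a log2 fold change of -8.30 ± 0.33 (edgeR adjusted p = 1.85e-12). AURKB (Aurora B), its kinase, went from 29.8, 28.2, 25.01 and 17.2 to 0.263, 0.563, 0.272 and 0.261 CPM (-6.25 ± 0.49, adjusted p = 6.35e-09). CDCA8 (borealin) had a log2 fold change of -5.75. INCENP, the scaffold on which the other 3 assemble, was at 64.0, 69.0, 72.1 and 111 CPM in untreated cells, 45.2, 49.9, 46.7 and 45.1 in S1D4, 28.9, 29.3, 29.9 and 32.0 in S2D4 and 23.0, 21.4, 19.3 and 23.5 in S2D30. Its groups did not overlap, yet it was the least lowered of the 60 genes in S1D4, S2D30 and GIMEN D30 (-0.78 ± 0.13, -1.89 ± 0.13 and -1.86 ± 0.07). In GIMEN INCENP went from 127, 124 and 133 to 34.9, 38.6 and 34.6 CPM while BIRC5 went from 205, 225 and 223 to 2.06, 1.46 and 1.35.

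Of the cytokinesis genes, CEP55, which recruits the abscission machinery to the midbody, fell furthest, from 52.2, 45.9, 47.1 and 42.9 CPM to 0.219, 0.358, 0.272 and 0.174 in S2D30 and from 66.6, 65.5 and 68.4 to 0.470, 0.381 and 0.321 in GIMEN. PRC1, the bundler of the central spindle, went from 141, 138, 119 and 116 to 57.6, 56.7, 32.1 and 27.7 CPM in S1D4, 15.8, 16.1, 14.1 and 24.2 in S2D4 and 6.67, 6.14, 7.75 and 6.82 in S2D30. Its log2 fold change at S2D30 was -4.27 ± 0.24 (edgeR adjusted p = 1.40e-10), and 47.8% of its 75-base words are shared with other GENCODE 29 genes. ECT2 and RACGAP1, which switch on RhoA at the division plane, had log2 fold changes of -2.77 and -3.42, and the ring scaffold ANLN of -5.88. Among genes of mitotic chromosomes, MKI67, the Ki-67 proliferation marker that coats them, had the lowest fold change of the 60 in S2D30. Its libraries stood at 186, 216, 133 and 267 CPM in the untreated SK-N-AS libraries, 70.7, 80.8, 30.3 and 27.1 in S1D4, 18.8, 16.8, 22.7 and 24.3 in S2D4 and 0.439, 0.102, 0 and 0.0434 in S2D30. The last values rest on 10, 2, 0 and 1 reads, so the fitted fold change of -10.38 ± 0.58 (edgeR adjusted p = 9.72e-11) is imprecise, and without S2D30 replicate 1 it was -11.95. TOP2A, the topoisomerase that untangles sister DNA, went from 214, 208, 214 and 307 to 0.570, 0.614, 0.544 and 0.304 CPM (-8.89 ± 0.28, adjusted p = 1.61e-13). The condensin subunits NCAPG and NCAPH had log2 fold changes of -6.92 and -4.25. SMC4, the core subunit shared by both condensins, went from 153, 165, 157 and 201 to 30.7, 32.8, 32.6 and 34.8 CPM and kept 19.3% of its level. NCAPG and SMC4 also share 29.7% and 19.4% of their 75-base words with other genes, and 33.1% and 25.6% of their exon bases lie opposite another gene.

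**Figure D4:**
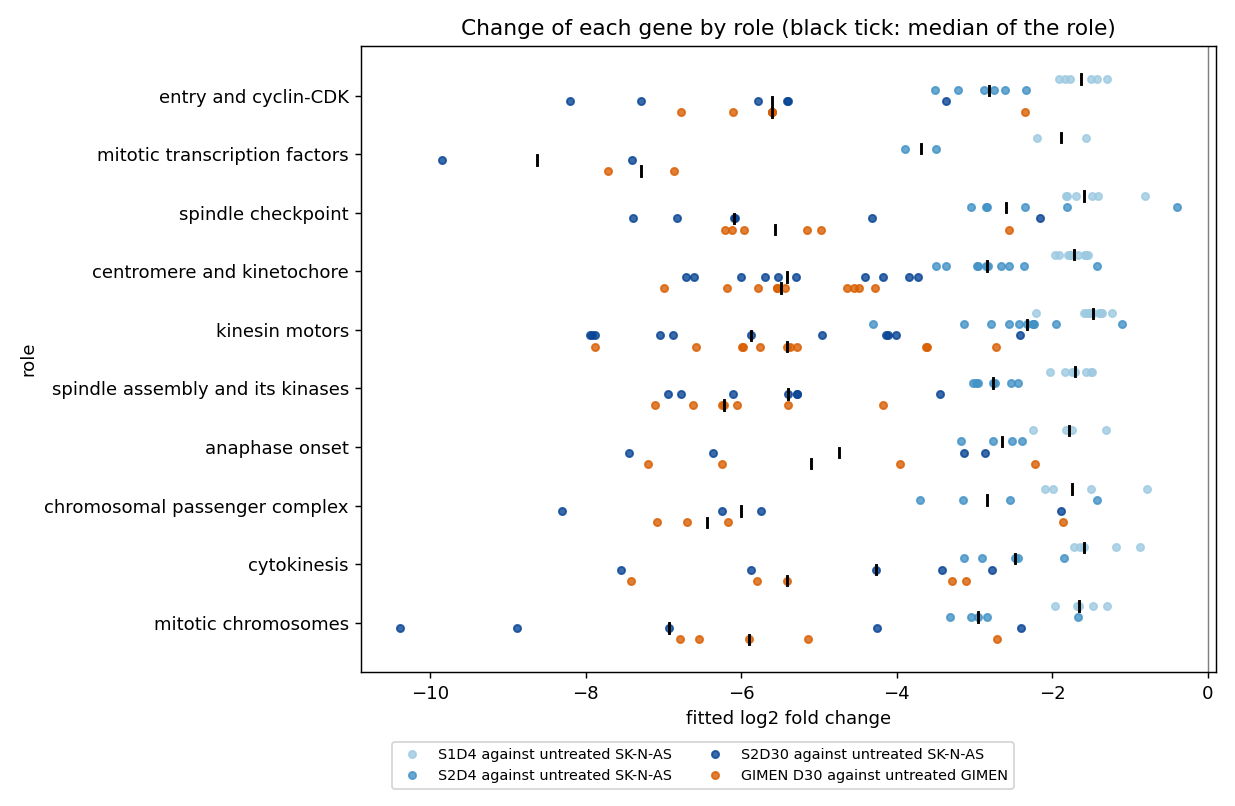
Fitted log2 fold change of each of the 60 genes in 4 comparisons with untreated cells, grouped by role, with a black tick at the median of the role. All points lie left of 0. The points of S1D4 lie close together, from -2.24 to -0.78, and those of S2D30 spread from -10.38 to -1.89.

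The step from stage 1 to stage 2, in which bufalin was added and the medium changed, lowered 53 of the 60 genes by day 4 (26.8% of all genes lower) and raised 1, KNTC1 (28.3% of all genes higher). The other 6, MAD2L1, CENPK, KIF20B, AURKA, CDC20 and PTTG1, did not pass the test. The median log2 fold change was -1.08, and 36 genes were lower and 1 higher without overlap (23.6% and 25.9% of all genes). KIF20A, FOXM1 and ESPL1 had the lowest values, -2.09 ± 0.22, -1.92 ± 0.26 and -1.86 ± 0.19 (SE, edgeR adjusted p = 7.15e-07, 1.36e-05 and 7.21e-07). At the other end stood KNTC1 (0.41 ± 0.13, adjusted p = 0.0126), KIF20B (0.28 ± 0.16, adjusted p = 0.159) and CENPK (0.24 ± 0.22, adjusted p = 0.366). MAD2L1 was at -0.32, AURKA at -0.50, CDC20 at -0.52 and PTTG1 at -0.58. This comparison depended on the split within S1D4. Set against S1D4 replicates 3 and 4 alone, 35 genes were lower and 3 higher. Against replicates 1 and 2 alone 57 were lower and none higher. The shares of all genes in these 2 fits were not computed. CENPK (0.75, edgeR adjusted p = 0.00965) and KIF20B (0.53, adjusted p = 0.0351) were among the 3 higher against replicates 3 and 4. MAD2L1, AURKA, CDC20 and PTTG1 passed as lower against replicates 1 and 2 alone. The median was -0.58 against replicates 3 and 4, -1.45 against replicates 1 and 2, and -1.29 without S2D4 replicate 4. CDK1, AURKB, MKI67, NDC80, UBE2C and SMC4 were among the genes that no longer passed against replicates 3 and 4 alone. FOXM1 did pass, at -1.31 (edgeR adjusted p = 3.75e-04), as did KIF20A and ESPL1 (-1.57 and -1.36). UBE2C and AURKB also missed the threshold without S1D4 replicate 1 or 2, and in a model of the 2 compared groups alone. UBE2C missed it too without S2D4 replicate 1, 2 or 3.

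Between day 4 and day 30 of stage 2 the levels fell further for 58 of the 60 genes (26.9% of all genes lower), with a median log2 fold change of -3.09, and 59 genes were lower without overlap (25.6% of all genes lower and 24.7% higher). MKI67, MYBL2 and TOP2A fell most, with log2 fold changes of -7.07 ± 0.59, -5.95 ± 0.53 and -5.93 ± 0.27 (edgeR adjusted p = 5.76e-08, 1.16e-07 and 9.02e-11). CDK1 and UBE2C followed among the genes named throughout, at -5.45 ± 0.42 and -4.92 ± 0.44. The 2 genes that did not pass both act at anaphase onset, ESPL1 (0.04 ± 0.20, adjusted p = 0.875) and PTTG1 (-0.47 ± 0.26, adjusted p = 0.144), and INCENP was the least lowered of those that did (-0.46 ± 0.13, adjusted p = 0.00756). PTTG1 passed in a model of the 2 groups alone. The transcription factors MYBL2 and FOXM1 had the lowest median of the 10 roles on both steps, -1.81 from S1D4 to S2D4 and -4.93 from S2D4 to S2D30. Cytokinesis genes had the smallest median on the second step (-1.36).

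After 30 days the median gene kept 1.86% of its untreated level in SK-N-AS and 1.97% in GIMEN. GIMEN received less PP121 and less bufalin, in another medium and without a separate first stage. Across the 60 genes the 30-day log2 fold changes of both lines correlated at 0.82 (Pearson) and 0.82 (Spearman), a description over genes that share the libraries of each line. Of the 10 least lowered genes of each line 8 were the same (CDCA3, ECT2, INCENP, KIF20B, KNTC1, PTTG1, RACGAP1 and SMC4), and of the 10 most lowered 5 were (BIRC5, CEP55, KIF20A, MKI67 and MYBL2). The difference of the changes was tested as an interaction. For 15 genes the fall was larger in SK-N-AS (25.2% of all 16246 genes tested), for 12 it was larger in GIMEN (24.5% of all genes), and 33 did not pass, so the share that differed was close to that of all genes. MKI67 (-3.60 ± 0.60, edgeR adjusted p = 1.00e-04), TOP2A (-2.996 ± 0.25, adjusted p = 6.37e-08) and TTK (-2.26 ± 0.32, adjusted p = 1.76e-05) leaned most to SK-N-AS. TOP2A ended at 0.570, 0.614, 0.544 and 0.304 CPM in S2D30 and 11.8, 9.58 and 9.31 in GIMEN D30, and MKI67 at 2.82, 2.03 and 1.99 CPM in GIMEN D30. CENPA (1.47 ± 0.40, adjusted p = 0.00540), KIFC1 (1.26 ± 0.13, adjusted p = 4.29e-07) and KIF23, a motor of the central spindle (1.25 ± 0.20, adjusted p = 5.74e-05), leaned most to GIMEN. CDK1 differed by -2.10 ± 0.47 (adjusted p = 0.00144), and by -1.16 without GIMEN D30 replicate 1 (adjusted p = 0.0196). MKI67 differed by -5.17 without S2D30 replicate 1. FOXM1 missed the threshold without S2D30 replicate 2 or GIMEN D30 replicate 1, PTTG1 without untreated GIMEN replicate 3, and NUSAP1 without GIMEN D30 replicate 3. In a fit of all 22 libraries 10 genes fell more in SK-N-AS and 9 more in GIMEN (shares of all genes not computed). FOXM1, PTTG1, NUSAP1, AURKA and CDCA8 were among those that no longer passed in that fit. Both transcription factors, CDK1, BIRC5 and PTTG1 were on the SK-N-AS side and TPX2, PRC1, MAD2L1 and ESPL1 on the GIMEN side, while PLK1, CCNB1, INCENP, KIF11 and NDC80 did not pass.

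**Figure D5:**
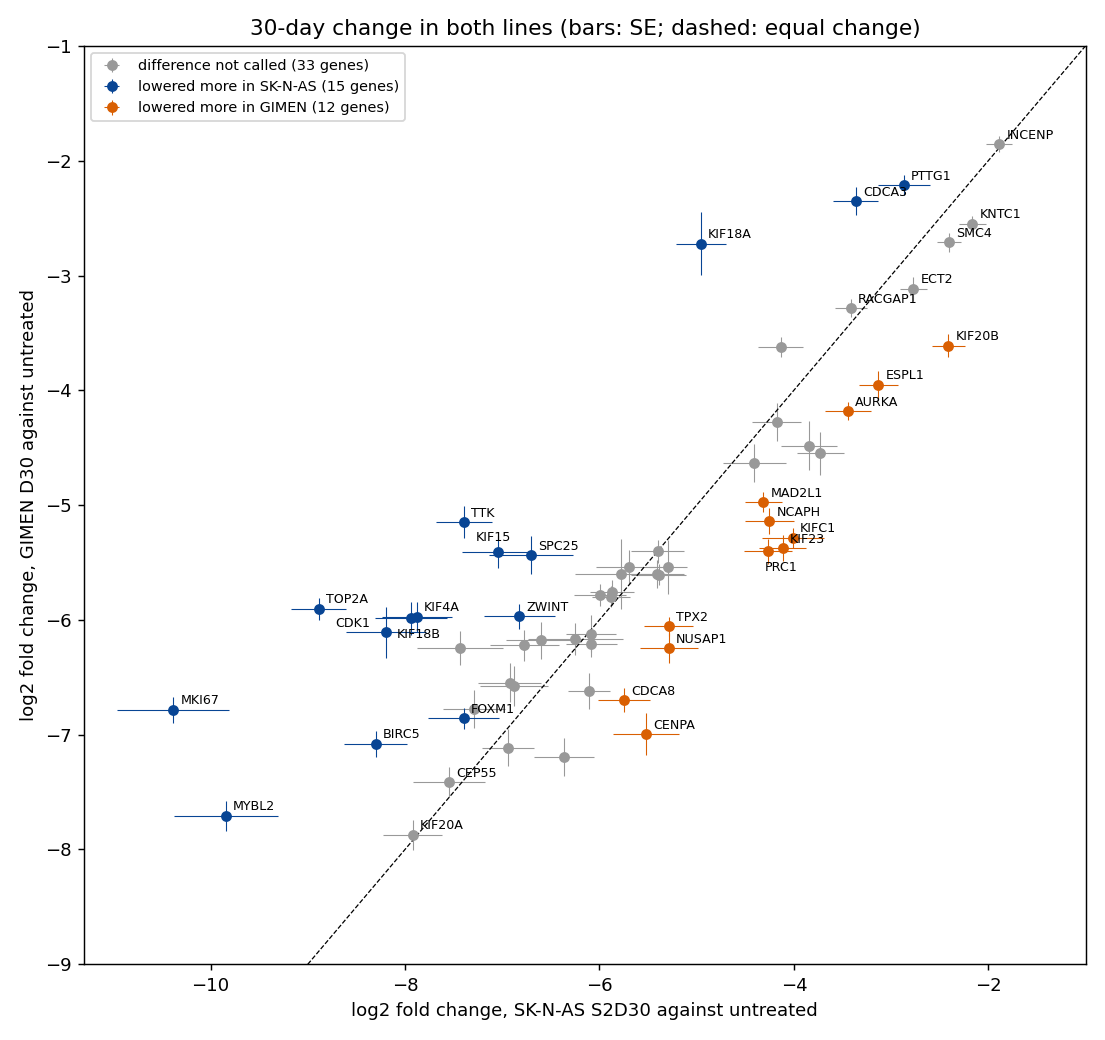
Log2 fold change of each gene after 30 days in SK-N-AS (horizontal, S2D30 against untreated) and GIMEN (vertical, D30 against untreated), with SE bars and a dashed line of equal change. Blue, 15 genes lowered more in SK-N-AS; orange, 12 lowered more in GIMEN; grey, 33 whose difference did not pass. MKI67, TOP2A and MYBL2 lie furthest left, and INCENP lies at the top right in both lines.

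Before treatment the 60 genes were mostly lower in SK-N-AS than in GIMEN. In the same model 43 were lower in untreated SK-N-AS (35.3% of all genes), 3 were higher (38.6% of all genes) and 14 did not pass, with a median log2 difference of -0.57 against 0.05 for all genes. Without overlap 44 were lower (34.1% of all genes) and 3 higher (37.6% of all genes). CENPI, AURKB and ANLN were furthest below (-1.65 ± 0.18, -1.65 ± 0.16 and -1.502 ± 0.09, edgeR adjusted p = 3.30e-07, 9.17e-08 and 1.35e-10). MYBL2 stood out in the other direction, at 329.6, 311, 287 and 237 CPM in SK-N-AS and 74.6, 79.4 and 79.2 in GIMEN (1.89 ± 0.12, adjusted p = 3.01e-10), followed by MAD2L1 (0.45 ± 0.09) and ESPL1 (0.44 ± 0.10). CDK1, CCNB1, UBE2C, MKI67 and KNTC1 were among those that did not pass. In untreated SK-N-AS replicate 4 the longer transcripts among the 60 genes stood higher. Without this library KNTC1, CENPE, CENPF and MKI67 passed as lower, and 47 genes were lower in all. In a fit of all 22 libraries 35 were lower, with CENPA, NDC80, PLK1 and PRC1 among those lost. With upper-quartile scaling 39 were lower, with PLK1 and PRC1 among those lost. Shares of all genes were not computed for these alternatives. Upper-quartile scaling moved the median of all genes in this comparison by 0.15, to 0.20, and that of the 60 genes to -0.42.

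Genes of the same processes outside the 60 were followed in lists of other genes, whose counts stand beside 36.5% lower and 33.8% higher over all genes in S2D30 and 36% and 35.5% in GIMEN D30. All 36 further spindle and mitosis genes were lower in S2D30, with a median log2 fold change of -3.49, and 35 of 36 were lower in GIMEN D30 (-4.36). The kinase PBK was lowest in both, at -9.12 ± 0.51 and -6.83 ± 0.13 (edgeR adjusted p = 1.13e-10 and 6.96e-12). WEE1, the kinase that holds CDK1 inactive, was the highest of the list in SK-N-AS: it was raised in S2D4 (0.63 ± 0.07, adjusted p = 6.13e-07) and lowered in S2D30 (-0.58 ± 0.07, adjusted p = 1.19e-06). Of 28 further kinetochore genes 26 were lower in S2D30 (-2.25), from SKA3, which helps NDC80 hold microtubules, at -7.17 to the centromere protein CENPC at 0.09, which did not pass. The medians of the other 4 lists lay closer to 0. Of 15 subunits and activators of the anaphase-promoting complex other than CDC20, 8 were lower and 7 higher in S2D30 (median -0.25), between ANAPC7 at -1.41 and ANAPC13 at 0.82. Of 14 cohesin and other condensin genes 9 were lower and 2 higher (median -0.47), between NCAPG2 at -3.03 and STAG1 at 0.93, and of 16 genes of microtubule nucleation 11 were lower and 3 higher (median -0.70), between HAUS1 at -2.22 and TUBGCP6 at 0.67. Of the 12 MuvB and DREAM subunits 7 were lower and 4 higher in S2D30 (median -0.54). TFDP1, the partner of E2F factors, was the lowest at -3.04 ± 0.14 (adjusted p = 1.27e-11), and RBL2, the p130 protein, the highest at 0.89 ± 0.13 (adjusted p = 8.71e-06). In GIMEN D30 the same list held 7 lower and 3 higher genes, from RBL1 at -1.82 to RBL2 at 0.47, with TFDP1 at -1.41.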

How the data were processed

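RNA of 22 samples was sequenced as paired 150-base reads, per the labels' protocols. The authors deposited raw counts per gene; the aligner, genome build, annotation and use of strand are not given in the sources used here. Counts were used as deposited, with 16456500 to 37506800 per library. Genes were filtered with filterByExpr (minimum count 10, minimum total 15), scaled by TMM and tested with edgeR 4.0.16 (limma 3.58.1, R 4.3.3), a quasi-likelihood fit over all libraries of a line, or over the 14 untreated and 30-day libraries for comparisons between lines. P-values were adjusted over all genes tested (Benjamini-Hochberg, 0.05). SE is the fold change divided by the square root of F, and is unreliable near 0. CPM used 1 TMM scaling of all 22 libraries. Genes named were 20 chosen from the 10 roles, the 3 lowest and 3 highest per comparison, members not called or against the majority, and the extremes of each further list. The members and lists were chosen with earlier results of these data known. Groups came from the labels. Alternatives were other scalings, filters, DESeq2 1.42.0, a replicate block, models of fewer or more groups, and each library left out. Shares of all genes lower or higher were computed for the main fits alone, not for these alternatives. The subsets of S1D4 replicates were chosen after seeing the data. No column was left unmapped. A result on a further marker gene is not reported here.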

Additional observations from a re-analysis of the deposited data

Results flagged for a closer look

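The 20 genes chosen from the 10 roles and the sum of the 60 genes were checked for outlying libraries. The other genes were not checked. In groups of 4, a library was marked where its gap to the nearest other exceeded Dixon's 95% limit. Chance passes this limit in about 1 of 20 independent groups, and 10 of 84 groups tested did. These groups share libraries and the sum includes the genes, so they are not independent, and 7 of the 10 marks fell on S2D4 replicate 4. S2D4 replicate 4 was the high library for CDK1 (20.1 CPM), FOXM1 (21.1), MAD2L1 (56.3), TPX2 (32.4), TOP2A (36.4), SMC4 (68.8) and the sum of the 60 genes (1031). KIF11 was high in S2D30 replicate 1 (1.54 CPM), AURKB in S2D30 replicate 2 (0.563) and TOP2A in untreated SK-N-AS replicate 4 (307).

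The 30-day change differed between the lines in edgeR's interaction test for 27 genes. The log2 difference, SK-N-AS minus GIMEN, was negative for 15. MKI67 was at -3.60, TOP2A at -2.996, TTK at -2.26, KIF18A at -2.25, MYBL2 at -2.15, CDK1 at -2.10, KIF18B at -1.96 and KIF4A at -1.92. KIF15 was at -1.64, SPC25 at -1.28, BIRC5 at -1.24, CDCA3 at -1.03, ZWINT at -0.87, PTTG1 at -0.67 and FOXM1 at -0.55. The difference was positive for 12. MAD2L1 was at 0.64, AURKA at 0.72, TPX2 at 0.76, ESPL1 at 0.81, NCAPH at 0.87 and CDCA8 at 0.94. NUSAP1 was at 0.95, PRC1 at 1.12, KIF20B at 1.19, KIF23 at 1.25, KIFC1 at 1.26 and CENPA at 1.47.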

How the results depend on the processing

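Of 3677 recomputed values for named genes, 3542 kept their direction and their side of the threshold, 35 lost it, 48 gained it and 52 changed sign. Of 381 counts and medians 4 moved, counts by over 1.5 times or medians by more than the SD between libraries. That SD is large for S1D4, so its median shifts of -1.58 to -1.25 or -2.06, and of -1.08 to -0.58 or -1.45 from S1D4 to S2D4, are not among the 4. All alternatives left 58 to 60 genes lower in S1D4, 59 to 60 in S2D4 and 60 in S2D30 and GIMEN D30. From S1D4 to S2D4 35 to 57 were lower and 0 to 3 higher: 35 and 3 against S1D4 replicates 3 and 4 alone, and 0 higher against replicates 1 and 2 alone. Upper-quartile scaling moved the median between the untreated lines to -0.42. Without TOP2A and MKI67 the summed CPM had means of 4294 in untreated SK-N-AS, 6000.5 in untreated GIMEN and 247 in GIMEN D30. Untreated GIMEN had 6899.8 with DESeq2 factors and 6487 with upper-quartile factors. Replicate numbers were not taken to pair the samples, since not every same-numbered pair correlated above 0.1: for S1D4 and untreated cells 3 of 4 were at 0.266 to 0.293 and replicate 3 at 0.0436, with S1D4 replicate 3 closest to untreated replicate 4 (0.286), and elsewhere they were at -0.101 to 0.103. With a replicate block 52 genes were lower and 1 higher from S1D4 to S2D4, UBE2C lost its call (adjusted p = 0.0558, edgeR), and the interaction held 16 lower and 14 higher, against 10 and 9 in a fit of all 22 libraries. There FOXM1 had an adjusted p of 0.412 and PTTG1 of 0.128. FOXM1 also missed the threshold in DESeq2 (0.0627) and with no count filter (0.0656, edgeR). The interaction of PLK1 was 0.00174 with DESeq2 factors, 9.75e-04 in DESeq2, 0.0144 with the block and 0.0153 in a fit of all 22 libraries, and that of BUB1B was -0.0232 with upper-quartile factors. These factors also put ZWINT at 0.0046 and UBE2C at 0.0775 between the untreated lines. From S1D4 to S2D4, CENPK was at -0.13 against replicates 1 and 2 alone, and MAD2L1 at 0.0039, AURKA at 0.14, CDC20 at 0.11, UBE2C at 0.0486 and PTTG1 at 0.13 against replicates 3 and 4 alone. Leaving out 1 library at a time, these values crossed 0: ESPL1 from S2D4 to S2D30 (-0.0436 to 0.18), the interaction of KIF20A (-0.30 to 0.32), PLK1 (-0.15 to 0.10), AURKB (-0.41 to 0.16), BUB1B (-0.22 to 0.53), INCENP (-0.13 to 0.14), DLGAP5 (-0.13 to 0.65), ANLN (-0.19 to 0.0295), NDC80 (-0.33 to 0.0393), NUF2 (-0.72 to 0.000971), CEP55 (-0.33 to 0.0247), CCNA2 (-0.0127 to 0.35), CENPE (-0.12 to 1.05), CDC25C (-0.63 to 0.25) and CENPK (-0.12 to 0.37), and between the untreated lines CDK1 (-0.0162 to 0.14), NUSAP1 (-0.067 to 0.11) and UBE2C (-0.23 to 0.0848). The cause was not tested. Levels under 1 CPM at 30 days rest on few reads, which limits the precision of the largest falls.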
